A study of Mus musculus with 27 samples.

Results

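The liver of BALB/c mice 4 days after their pups had been weaned was compared with the liver of nulliparous mice, gene by gene. The comparison used 8 of the 27 libraries of a bulk RNA sequencing study of the reproductive cycle, chosen by their titles: 4 of day 4 after weaning (ID4, called involution day 4 by the labels) and 4 of nulliparous, non-pregnant animals (NUL). All animals were wildtype BALB/c, an inbred laboratory strain, and were age-matched per the labels, which give no other treatment or allele. The ID4 females had been bred at 10 to 12 weeks of age, had nursed litters of even size and had lost their pups by weaning after 10 to 14 days of lactation. RNA was extracted with Trizol from whole livers that had been frozen and pulverised, and the NEBNext Ultra RNA kit served for library preparation. The other 19 libraries (lactation day 10, days 2, 6 and 8 after weaning and 4 weeks after weaning) entered the fit, so that all stages shared 1 estimate of the spread. The labels number the libraries and do not say more of their origin, so the tests measure the spread between these samples. In bulk RNA, fewer cells of a type and less RNA per cell cannot be told apart.

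The liver grows and its metabolism is geared up in lactation to feed milk production, and after weaning that demand ends while the mammary gland regresses. Hepatocytes make cholesterol and fatty acids, whose genes answer to the SREBP transcription factors, which are held back when sterol is plentiful. Hepatocytes also secrete most plasma proteins, among them the acute phase proteins that are induced by cytokines in inflammation. Kupffer cells are the macrophages that live in the sinusoids of the liver.

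Expected counts totalled 60984140 to 71340058 in the ID4 libraries and 60498871 to 70815012 in the NUL libraries. Mitochondrially encoded genes took 3.66% to 4.45% of counts in ID4 and 4.00% to 5.17% in NUL. Albumin took 6.82% to 8.00% in ID4 and 7.99% (NUL_221) to 10.2% in NUL, so the ranges met at 1 NUL library. The 10 hepatocyte markers summed to 105391 to 116140 TPM (transcripts-per-million, a length-scaled level) in ID4 and to 101064 to 124727 TPM in NUL. Library ID4_15 stood apart in exocrine pancreas genes: without Cela1, a pancreas marker read in all 8 libraries, these summed to 192 TPM there and to 0 to 0.40 TPM in the other 7 libraries. The titles of ID4_13 and ID4_15 carry numbers under 200, and those of all NUL libraries 200 or over. A score of the daily clock, dusk genes minus dawn genes, ran from -2.50 to -1.43 in ID4 and from -3.71 to -2.28 in NUL. Below, CPM stands for counts-per-million after scaling, and a gene is called at an adjusted p under 0.05 in edgeR's quasi-likelihood test (Benjamini-Hochberg, two-sided). The 4 values of a group are given in the order NUL_220, NUL_221, NUL_226, NUL_227 and ID4_13, ID4_15, ID4_211, ID4_215.

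By the share of members called, the lists with most falls at day 4 were cholesterol synthesis (20 of 20), sterol uptake (5 of 15) and fatty acid synthesis (6 of 24). Those with most rises were complement and coagulation (24 of 39), macrophage markers (9 of 15), acute phase proteins (16 of 35), MHC class I presentation (7 of 21), plasma carriers (6 of 21) and lysosome and autophagy (10 of 37). Of 16428 genes tested, 4.25% were called, 2.64% higher and 1.61% lower in ID4. The falls were larger: 79 of the 264 lower genes and 45 of the 434 higher genes had an absolute log2 fold change over 1, and the medians were -0.64 among the lower and 0.51 among the higher. In 630 of the 698 called genes (90.3%) the CPM of the 4 ID4 libraries did not overlap that of the 4 NUL libraries, and the same held for 11.6% of all genes tested. Among the called genes 659 were protein-coding, and 170 belonged to a list of genes of a known process drawn up for the liver. The higher share of calls, 62.2%, was 46.1% with limma on log2(TPM + 1), where the median log2 fold change of all genes was -0.048 against -0.016 here. Leaving out 1 library gave 418 (ID4_13), 417 (NUL_226), 436 (NUL_227) and 460 (NUL_221) calls, and 496 to 611 for the other 4 libraries. Without ID4_15, the library with pancreas RNA, 503 genes were called, 453 of them also called with it. With only the ID4 libraries numbered 200 or over, 229 genes were called, 93.9% of them among the 698.

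**Figure D1:**
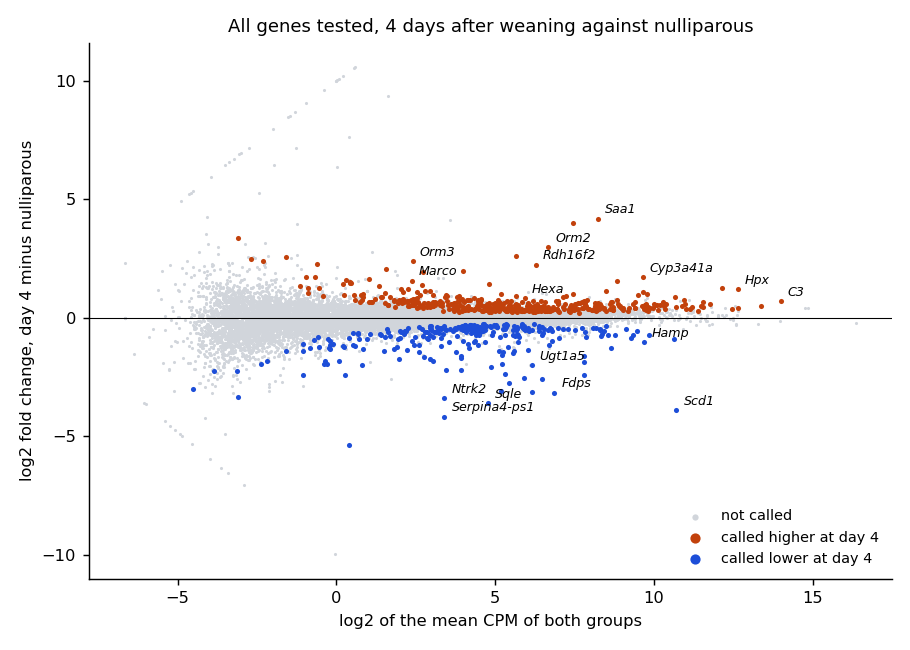
Log2 fold change of day 4 against nulliparous (vertical axis) by log2 of the mean CPM of both groups (horizontal axis) for the 16428 genes tested, with called genes in colour. Scd1 lies lowest among abundant genes, while Saa1 lies highest among the labelled rises and Hpx and C3 are the most abundant labelled rises.

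**Figure D2:**
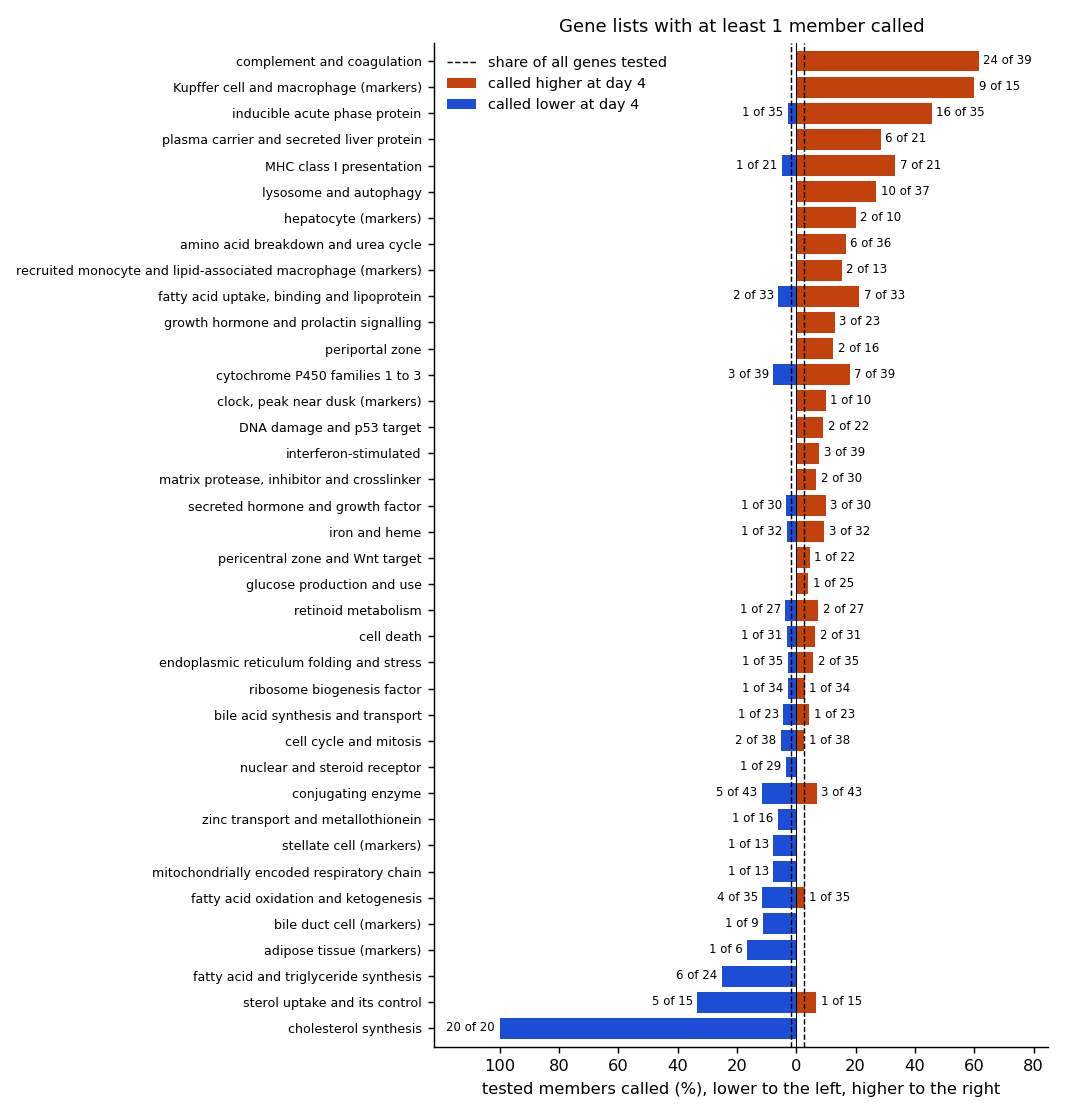
Share of the tested members of each gene list that were called higher (right) or lower (left) at day 4, in percent, with counts beside the bars; dashed lines mark the shares of all genes tested, 2.64% and 1.61%. Cholesterol synthesis has 20 of 20 members lower, while complement and coagulation has 24 of 39 higher.

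Cholesterol synthesis fell as a whole. All 20 listed enzymes, from the first steps (Acat2, Hmgcs1) to the last (Dhcr7), were called lower, against 1.61% of all genes tested, and none overlapped between the groups, against 5.44% of genes lower without overlap. Their median log2 fold change was -1.46 (range -3.60 to -0.44), against -0.016 over all genes. Summed over the 20 genes, the level was 706 to 802 TPM in the 4 ID4 libraries and 1503 to 2115 TPM in NUL. The 5 largest falls were in Sqle, Fdps, Idi1, Msmo1 and Cyp51, which act in the middle of the pathway.

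Sqle (ENSMUSG00000022351, chromosome 15, 59315077 to 59331192), squalene epoxidase, which acts before the sterol rings are closed, had 25.9, 45.4, 46.9 and 82.5 CPM in NUL and 5.94, 3.68, 3.29 and 3.66 CPM in ID4. The highest ID4 library lay 4.35-fold below the lowest NUL library. The means were 12.1-fold apart, a difference of -3.60 on the log2 scale (SE 0.37, edgeR adjusted p = 6.98e-06). Fdps (ENSMUSG00000059743, chromosome 3, 89093588 to 89101959), which makes farnesyl diphosphate, stood at 157, 245, 166 and 267 CPM in NUL and at 24.5, 21.6, 24.1 and 24.1 CPM in ID4. The 4 ID4 values spread by an SD of 1.35 CPM around 23.6, the NUL values by 55.2 around 208.7, and the log2 fold change was -3.15 (SE 0.30, edgeR adjusted p = 1.67e-06). Idi1 (ENSMUSG00000058258, chromosome 13, 8885501 to 8892451), isopentenyl diphosphate isomerase, had 87.2, 134, 115 and 178 CPM in NUL and 20.6, 11.6, 10.8 and 15.4 CPM in ID4, 8.79-fold lower (log2 fold change -3.14, SE 0.25, edgeR adjusted p = 5.78e-08). Cyp51, which demethylates lanosterol, had the smallest adjusted p of the list (1.10e-09 by edgeR) and fell from 103 ± 30.5 to 17.9 ± 2.55 CPM (SD, n = 4 and 4). Msmo1 and Nsdhl, which carry out the next demethylation steps, had log2 fold changes of -2.74 and -2.08. Mvd, of the mevalonate part, fell by 2.22. Between 18 and 20 of the 20 enzymes were called when 1 library was left out, and 16 with only the ID4 libraries numbered 200 or over.

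The promoters of these genes are shown because the enzymes fell together. RefSeq (GRCm38.p6) promoters, 250 bases before to 50 after the start, were found for 15 of the 20 genes. The letters CCAAT, the box bound by NF-Y, stood on either strand in 14 of the 15 (93.3%), against 42.6% of the 11701 tested genes with a promoter in the table. The letters TCACNCCAC of a sterol regulatory element stood in 1 of the 15 (6.67%, Hmgcs1), against 1.47%. A match of letters is a description of the sequence and not a binding site. The 250 bases before the start are printed 5′ to 3′ for Hmgcs1 (chr13:119690101-119690350, plus strand), which makes HMG-CoA and holds both motifs, Idi1 (chr13:8885356-8885605, plus strand), Nsdhl (chrX:72918271-72918520, plus strand) and Insig1 (chr5:28071162-28071411, plus strand), a gene of sterol sensing described next. Capitals mark CCAAT, here always read as ATTGG, and TCACNCCAC.
Hmgcs1: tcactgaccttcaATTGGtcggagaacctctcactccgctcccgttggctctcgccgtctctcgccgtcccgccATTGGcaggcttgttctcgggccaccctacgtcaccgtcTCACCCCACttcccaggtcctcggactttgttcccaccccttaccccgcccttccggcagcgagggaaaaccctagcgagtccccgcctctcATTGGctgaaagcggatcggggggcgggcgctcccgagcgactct
Idi1: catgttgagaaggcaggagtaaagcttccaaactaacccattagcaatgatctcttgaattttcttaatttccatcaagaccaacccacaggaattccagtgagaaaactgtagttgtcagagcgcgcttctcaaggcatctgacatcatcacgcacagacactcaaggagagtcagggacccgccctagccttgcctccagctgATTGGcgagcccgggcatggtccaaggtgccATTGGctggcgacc
Nsdhl: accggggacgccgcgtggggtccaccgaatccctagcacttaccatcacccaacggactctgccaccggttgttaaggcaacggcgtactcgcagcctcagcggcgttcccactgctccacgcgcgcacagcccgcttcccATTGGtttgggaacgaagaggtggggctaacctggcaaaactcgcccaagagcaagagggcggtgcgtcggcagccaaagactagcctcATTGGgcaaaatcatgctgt
Insig1: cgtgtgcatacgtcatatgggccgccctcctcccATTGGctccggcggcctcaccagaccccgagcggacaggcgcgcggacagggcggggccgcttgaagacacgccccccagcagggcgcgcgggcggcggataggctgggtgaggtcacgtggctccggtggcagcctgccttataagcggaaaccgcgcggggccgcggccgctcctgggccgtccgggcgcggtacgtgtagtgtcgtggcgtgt
Hmgcs1 had 208, 383, 283 and 453 CPM in NUL and 129, 119, 96.5 and 94 CPM in ID4. Its 3.03-fold fall (log2 fold change -1.60, SE 0.20, edgeR adjusted p = 5.28e-05) was smaller than that of Idi1 and Nsdhl. In the full 300 bases, CCAAT stood 4 times in Hmgcs1, 4 times in Nsdhl and 2 times in Idi1.

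Genes of sterol uptake and sensing moved in part with the enzymes. Of 15 tested genes of this list (16 listed), 5 fell and 1 rose, against 1.61% and 2.64% of all genes tested, and the median was 0.10. Insig1, which retains the SREBP complex in the endoplasmic reticulum, fell 5.33-fold from 373 ± 112 to 70.0 ± 27.8 CPM (SD, n = 4 and 4; log2 fold change -2.41, SE 0.43, edgeR adjusted p = 0.00222), a call lost with only the ID4 libraries numbered 200 or over (log2 fold change -2.13, adjusted p 0.0812). Srebf2, which encodes SREBP2, fell by 0.79 and Stard4, a carrier of cholesterol within the cell, by 1.36 on the log2 scale. Abcg1, which exports cholesterol to HDL, was the gene that rose (log2 fold change 0.58, edgeR adjusted p = 0.0113), and its call was lost without NUL_227.

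Of the 4 desaturases on the fatty acid synthesis list, Scd1, Fads1 and Fads2 fell, and Scd2, chosen after its values were seen, was not called (log2 fold change 0.16, edgeR adjusted p = 0.783). None of the 24 tested genes of fatty acid and triglyceride synthesis (25 listed) rose. A total of 6 fell, against 1.61% of all genes tested, and the median log2 fold change was -0.72. A further 9 had lower CPM in all 4 ID4 libraries without being called. In all, 15 of the 24 were lower without overlap, against 5.44% of all genes tested. Scd1 (ENSMUSG00000037071, chromosome 19, 44394455 to 44407879), the desaturase that makes oleic acid, had 4134, 2723, 2538 and 3146 CPM in NUL and 184, 219, 272 and 172 CPM in ID4. The lowest NUL value was 9.31-fold above the highest ID4 value. In length-scaled levels Scd1 fell from 828 to 53.3 TPM. Fads1 and Fads2, the desaturases of polyunsaturated fatty acids, fell together, by 0.74 and 0.73 on the log2 scale. Both were lowest in ID4_15 (245 CPM for Fads1 and 203.5 for Fads2, against 327 to 376 and 279 to 331 in the other ID4 libraries). Fasn, fatty acid synthase, had 389.7, 303, 244 and 471 CPM in NUL and 93.8, 96.7, 107 and 85.9 CPM in ID4 (log2 fold change -1.88, SE 0.50, edgeR adjusted p = 0.0355). The groups were 2.28-fold apart at their nearest values, but Fasn was not called in 7 of the 8 fits that left out 1 library (largest adjusted p 0.0892, without ID4_13). Mid1ip1, a protein that promotes the activity of acetyl-CoA carboxylase, fell by 1.03 and the elongase Elovl5 by 0.48. Elovl6 and Acly, chosen after their values were seen, were not called, with log2 fold changes of -1.24 (edgeR adjusted p = 0.204) and -0.72 (0.367). The list had 3 calls without any one of ID4_15, ID4_211, ID4_215, NUL_220, NUL_221 and NUL_227, and also with only the ID4 libraries numbered 200 or over. In these fits the 3 were Scd1, Fads1 and Fads2, and Fasn, Mid1ip1 and Elovl5 were not called; with only the 8 ID4 and NUL libraries in the fit it had 14.

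**Figure D3:**
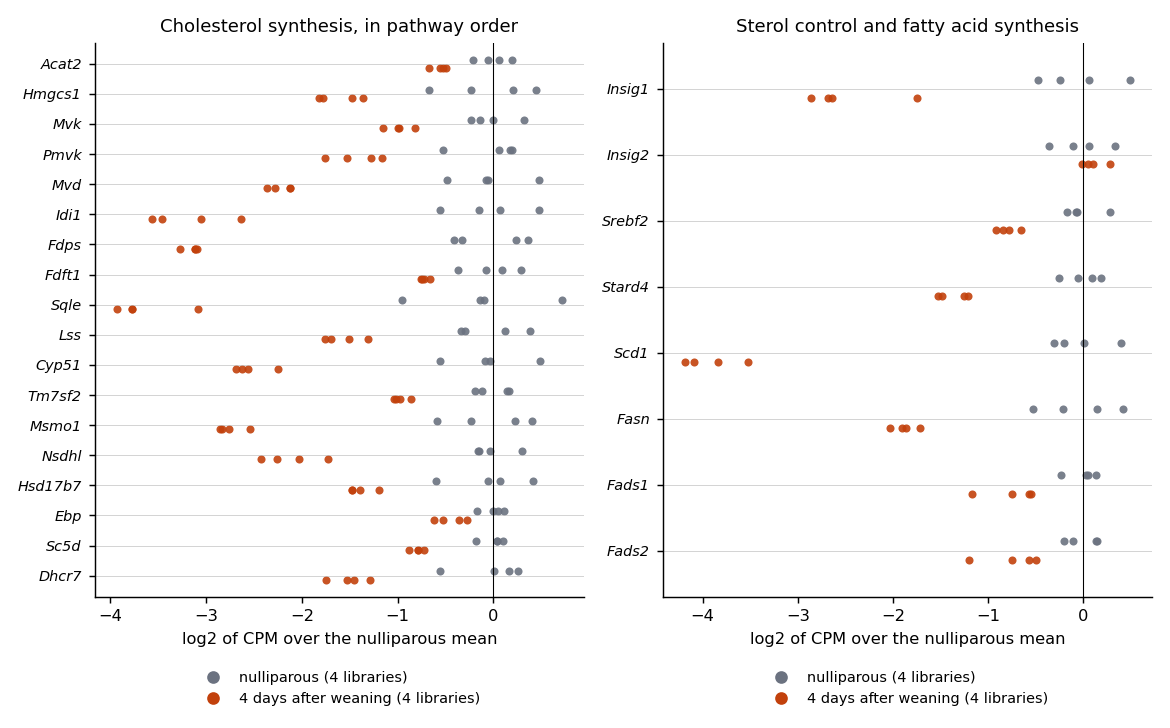
Log2 of CPM over the nulliparous mean for each library (points, 4 per group) of 18 of the 20 cholesterol synthesis enzymes in pathway order (left) and of 8 genes of sterol control and fatty acid synthesis (right). The ID4 points of all 18 enzymes shown lie to the left of the NUL points, farthest for Sqle, Idi1 and Fdps, and those of Scd1 lie farthest left on the right-hand panel.

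Among the 33 genes of fatty acid uptake, binding and lipoproteins 7 rose and 2 fell, against 2.64% and 1.61% of all genes tested. Their median was 0.16, and 4 rose and 2 fell with only the ID4 libraries numbered 200 or over. Lpl (ENSMUSG00000015568, chromosome 8, 68880491 to 68907448), lipoprotein lipase, which is low in the adult liver, had 12, 7.54, 19.1 and 21.8 CPM in NUL and 41.8, 56.2, 31.9 and 33.1 CPM in ID4, a difference of 1.43 on the log2 scale (SE 0.29, edgeR adjusted p = 0.00547). All ID4 values lay above all NUL values, and the call was lost with only the ID4 libraries numbered 200 or over (adjusted p 0.112). Cd36, a fatty acid translocase, chosen after its values were seen, rose by 0.93, a call also lost in that setting (adjusted p 0.0585). Scarb1, the HDL receptor, rose 1.64-fold from 169.6 ± 8.96 to 278 ± 24.0 CPM (SD, n = 4 and 4), and Lipc, hepatic lipase, rose 1.41-fold. Lipg, endothelial lipase, fell 3.13-fold, with 7.43 to 12.7 CPM in NUL and 1.75 to 4.56 CPM in ID4. Fabp1, the abundant fatty acid binding protein of hepatocytes, fell from 8608 to 4282 TPM, with 1884 to 2288 CPM in NUL and 832 to 1427 CPM in ID4 (log2 fold change -0.90, SE 0.14, edgeR adjusted p = 3.00e-04).

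Of 35 genes of fatty acid oxidation 4 fell, against 1.61% of all genes tested, and 1 rose, against 2.64%, with a median log2 fold change of -0.05. The 4 were Ehhadh, the peroxisomal bifunctional enzyme (-0.57), Cyp4a14, a fatty acid hydroxylase (-2.57), Acot1, a thioesterase (-1.74), and Pdk4, which restrains pyruvate dehydrogenase (-1.42). Pdk4 had 21.2, 24.5, 11.6 and 22.5 CPM in NUL and 7.54, 6.04, 8.16 and 8.05 CPM in ID4, a call lost with only the ID4 libraries numbered 200 or over (adjusted p 0.103). Cyp4a14 had 145, 183, 160.0 and 114 CPM in NUL and 20.3, 12.2, 13.3 and 55.8 CPM in ID4, with ID4_215 the highest of its group (SE 0.70, edgeR adjusted p = 0.0409). It was not called in 7 of the 8 fits that left out 1 library (adjusted p 0.113 without ID4_13) and Acot1 was not in 5 (adjusted p 0.0784 without ID4_15). Counts of Acot1 were not whole in any of the 8 libraries, so the division of reads with its near copies bears on it. The list had 2 falls without any one of ID4_13, ID4_15, ID4_211, NUL_221 and NUL_226, and 0 with only the ID4 libraries numbered 200 or over. Hadh, a mitochondrial step of beta-oxidation, was the gene that rose (log2 fold change 0.30), a call lost in 5 of these fits (adjusted p 0.114 without NUL_227).

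Of 35 acute phase genes, 16 rose, against 2.64% of all genes tested, 1 fell and 18 were not called; 32 had a positive log2 fold change and the median was 0.65. Their summed level overlapped between the groups, with 33167 to 47391 TPM in NUL and 38650 to 59565 TPM in ID4. Saa1 (ENSMUSG00000074115, chromosome 7, 46740497 to 46742980), serum amyloid A, was chosen after its values were seen. It had 12.7, 88.5, 9.08 and 15.6 CPM in NUL and 1242, 187, 807 and 58.6 CPM in ID4. Libraries ID4_13 and ID4_211 were high, while NUL_221, at 88.5 CPM, lay above ID4_215, so the groups overlapped (log2 fold change 4.19, SE 0.86, edgeR adjusted p = 0.00717). Saa1 was not called when only the ID4 and NUL libraries were fitted (adjusted p 0.153). Orm2, an acid glycoprotein chosen in the same way, had 18, 38.2, 16.8 and 18.2 CPM in NUL and 282, 165, 239.8 and 31.6 CPM in ID4, where NUL_221 again lay above ID4_215. Orm2 was not called in that fit, with the number range as a covariate (adjusted p 0.0548) or with only the ID4 libraries numbered 200 or over (adjusted p 0.095). Saa2 (4.01) and Lcn2 (2.59), an iron-siderophore binding protein, also chosen after their values were seen, lost their calls without ID4_13 (adjusted p 0.0518 and 0.15). Lcn2 was not called in 6 of the 8 fits that left out 1 library, against 1 of 8 for Saa2, and neither was called with only the ID4 libraries numbered 200 or over (adjusted p 0.0671 for Saa2 and 0.291 for Lcn2).

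Hpx (ENSMUSG00000030895, chromosome 7, 105591613 to 105600137), hemopexin, which binds free heme, had 3382, 4693, 3268 and 4040 CPM in NUL and 11094, 7323, 10778 and 6309 CPM in ID4. It rose by a difference of 1.21 on the log2 scale (SE 0.22, edgeR adjusted p = 0.00175) and kept this call in every alternative. Hp, haptoglobin, which binds free hemoglobin, had 1887, 3857, 2197 and 2659 CPM in NUL and 8596, 5459, 6746 and 4626 CPM in ID4 (log2 fold change 1.26, edgeR adjusted p = 0.0172). It was not called in 3 of the 8 fits that left out 1 library (adjusted p 0.0641 without ID4_13). Its call was also lost with the number range as a covariate (adjusted p 0.0857) and with only the ID4 libraries numbered 200 or over (adjusted p 0.138). Orm3 had 1.8, 2.5, 0.652 and 1.85 CPM in NUL and 9.26, 6.23, 13.1 and 6.91 CPM in ID4. Saa3, a serum amyloid A form also made by macrophages, had 6.94, 6.81, 6.19 and 6.03 CPM in NUL and 26.3, 35.8, 22.6 and 16.6 CPM in ID4, 3.89-fold higher (log2 fold change 1.96, SE 0.36, edgeR adjusted p = 0.00239; 0.0572 as adjusted p with only the ID4 libraries numbered 200 or over). Il1rn, the natural antagonist of interleukin-1, rose by 1.63 and Itih3, a carrier of hyaluronan, by 0.87. ID4_215 was the lowest ID4 library for Hpx, Hp, Saa3 and Itih3, while ID4_13 or ID4_211 was the highest for Hpx, Hp, Orm3 and Itih3. The list had 12 (without ID4_13) to 17 rises when 1 library was left out, 10 with the title number range as a covariate and 7 with only the ID4 libraries numbered 200 or over. Neutrophil markers summed to 16.0 to 34.3 TPM in ID4 and 7.63 to 22.1 TPM in NUL; their part in the result was not tested.

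Hamp (ENSMUSG00000050440, chromosome 7, 30942368 to 30944032), hepcidin, the hormone that blocks iron export and is itself an acute phase gene, went the other way. It had 1247, 1094, 1071 and 1022 CPM in NUL and 517, 388, 678 and 592 CPM in ID4, a fall by 1.03 on the log2 scale (SE 0.19, edgeR adjusted p = 0.00194). Every ID4 library was below every NUL library, and the call was lost with only the ID4 libraries numbered 200 or over (-0.80, adjusted p 0.0782). Of the 32 genes of iron and heme handling, 3 rose (Hp, Hpx and Steap3, a ferrireductase, 0.60) and Hamp alone fell. The shares of all genes tested were 2.64% and 1.61%. With only the ID4 libraries numbered 200 or over, 1 gene of this list rose. The 3 fibrinogen chain genes Fga, Fgb and Fgg, looked up after the other values were seen, had log2 fold changes of 0.02, 0.12 and 0.12 and were not called (edgeR adjusted p 0.962, 0.764 and 0.721). Their groups overlapped.

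Complement and coagulation factors rose by small amounts in most members. Of 39 genes, 24 rose, none fell, and 28 were higher in all 4 ID4 libraries than in any NUL library, against 6.17% of all genes tested. The median log2 fold change was 0.43, 38 of 39 were positive, and the summed level was 26972 to 32990 TPM in ID4 and 21310 to 25255 TPM in NUL. C3 (ENSMUSG00000024164, chromosome 17, 57203970 to 57228136), the central complement protein, had 10692, 11684, 12914 and 14079 CPM in NUL and 24723, 18647, 20991 and 16436 CPM in ID4, a difference of 0.71 on the log2 scale (SE 0.13, edgeR adjusted p = 0.00139). Cfb, which forms the alternative pathway convertase with C3, had 1567, 1630, 1566 and 1668 CPM in NUL and 2669, 2161, 2563 and 2298 CPM in ID4, a rise of 0.59 (SE 0.10, edgeR adjusted p = 9.09e-04). F7, which starts coagulation with tissue factor, rose by 0.57, and Pros1, the anticoagulant protein S, by 0.54. Serpinc1, antithrombin, rose 1.21-fold, but it was not called in any of the 8 fits that left out 1 library (largest adjusted p 0.124, without NUL_221), and its counts were not whole in any library. F2, prothrombin, chosen after its values were seen, missed the threshold (log2 fold change 0.35, edgeR adjusted p = 0.0589). Between 19 (without ID4_211) and 25 (without ID4_15) of the genes were called higher when 1 library was left out, and 17 with only the ID4 libraries numbered 200 or over.

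Among 21 carriers and other secreted liver proteins, 6 rose, against 2.64% of all genes tested, and none fell (median 0.29). With only the ID4 libraries numbered 200 or over, 3 rose. Hrg (ENSMUSG00000022877, chromosome 16, 22951072 to 22961656), histidine-rich glycoprotein, had 534, 519, 487 and 543 CPM in NUL and 896, 745, 856 and 792 CPM in ID4, a difference of 0.66 on the log2 scale (SE 0.10, edgeR adjusted p = 1.76e-04). Fetub, a protease inhibitor, rose by 0.68, and Ahsg, fetuin-A, by 0.50, a call lost without NUL_221 (adjusted p 0.0541), without ID4_15 and with only the ID4 libraries numbered 200 or over (adjusted p 0.102). Alb, the most abundant of these transcripts, was not called (61356 TPM in NUL, 50676 TPM in ID4, log2 fold change -0.20, edgeR adjusted p = 0.465). The groups overlapped for Alb, with NUL_221, at 74654 CPM, below 3 of the ID4 libraries.

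**Figure D4:**
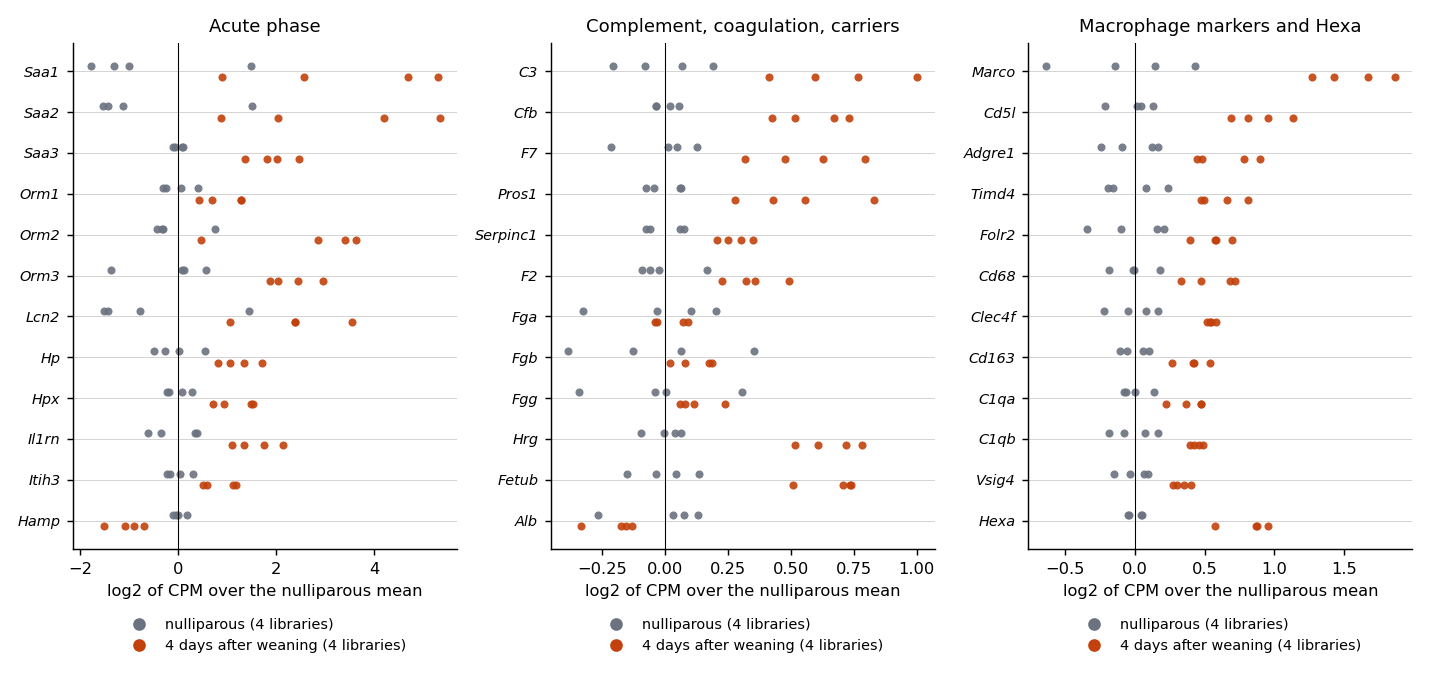
Log2 of CPM over the nulliparous mean for each library (points, 4 per group) of acute phase genes (left), complement, coagulation and carrier genes (middle) and macrophage markers with Hexa (right); the 3 horizontal axes differ in range. Saa1, Saa2, Orm2 and Lcn2 overlap between the groups, Hamp lies lower in ID4, Fga, Fgb and Fgg overlap, and all macrophage markers shown lie higher in ID4.

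Of 15 markers of Kupffer cells and other macrophages, 9 rose, against 2.64% of all genes tested. All 15 had a positive log2 fold change, with a median of 0.44. A total of 13 were higher in all ID4 libraries than in any NUL library, against 6.17% of all genes tested. The 15 markers summed to 784 to 936 TPM in ID4 and to 577 to 675 TPM in NUL, and none was at 0. Marco (ENSMUSG00000026390, chromosome 1, 120474538 to 120505024), a scavenger receptor for bacteria and particles, had 2.87, 3.51, 1.67 and 2.36 CPM in NUL and 8.27, 9.48, 6.26 and 7.01 CPM in ID4. It had the largest change of the list (log2 fold change 1.57, SE 0.28, edgeR adjusted p = 0.00116), and its groups did not overlap. Cd5l, a secreted protein of tissue macrophages, had 115, 90.7, 108 and 106 CPM in NUL and 203.2, 230.4, 184 and 169 CPM in ID4 (log2 fold change 0.91, edgeR adjusted p = 0.00239). Adgre1, which encodes F4/80, rose by 0.67, Timd4, a receptor of resident Kupffer cells, by 0.61, and Clec4f, a lectin found on mouse Kupffer cells, by 0.54. Folr2 (0.57), Cd68 (0.56), Cd163 (0.41) and C1qa (0.39) were also called, with counts of Folr2 not whole in any library. The list had 3 calls without NUL_221 (adjusted p 0.0569 for Clec4f and 0.054 for Timd4), 4 without ID4_15 or NUL_227, 6 to 10 without another library, and 1 with only the ID4 libraries numbered 200 or over. Vsig4 and C1qb, chosen after their values were seen, had no overlap but were not called (edgeR adjusted p 0.109 and 0.0646).

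Markers of other cells showed fewer calls. Of 13 markers of recruited monocytes and lipid-associated macrophages, Ly6c2 (1.25) and Mmp12 (1.60) rose, from levels under 1 TPM in NUL. Neither was called in several fits that left out 1 library (adjusted p 0.169 and 0.0903 without ID4_15). Of the 13, 12 had a positive log2 fold change (median 0.37) and 4 were higher without overlap, against 6.17% of all genes tested. Among 11 tested neutrophil markers 10 were positive (median 0.76), and none was without overlap. Among the stellate cell markers Reln fell by 0.53 (lost in 3 fits, adjusted p 0.077 without NUL_227), and the 13 markers summed to 285 to 319 TPM in ID4 and 330.0 to 389 TPM in NUL. Sox9, a bile duct marker, fell by 1.18 with overlap (adjusted p 0.168 without NUL_221). Car3, listed for adipose tissue and also expressed by hepatocytes, fell by 0.83 (adjusted p 0.0815 without ID4_215); the fat cell hormones Adipoq, Retn, Lep and the lipid droplet protein Plin1, chosen after their values were seen, averaged at most 0.37 TPM in either group. With edgeR, no marker of T and NK cells (16 tested, 2 with an unadjusted p under 0.05), B and plasma cells (11, 4), neutrophils (11, 3), sinusoidal endothelium (16, 3), red cells (7, 1) or exocrine pancreas (16, 7) was called. DESeq2 called 1 endothelial marker and none of the others, and limma on log2(TPM + 1) called none.

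A part of the lysosomal genes rose. Of 37 genes of lysosome and autophagy 10 rose, against 2.64% of all genes tested, and none fell, with a median of 0.18. The summed level was 4368 to 4591 TPM in ID4 and 3882 to 4139 TPM in NUL. Hexa (ENSMUSG00000025232, chromosome 9, 59539540 to 59565109), the alpha subunit of beta-hexosaminidase, which degrades gangliosides, had 45.4, 42.5, 45.6 and 42.7 CPM in NUL and 85.2, 80.8, 65.6 and 80.3 CPM in ID4. The groups lay 1.44-fold apart at their nearest values (log2 fold change 0.82, SE 0.08, edgeR adjusted p = 1.44e-07), the smallest adjusted p among all genes that rose. Ctsa, protective protein or cathepsin A, rose by 0.46, and Gabarapl1, of the autophagosome, by 0.68. The list had 6 rises without ID4_13, 5 with only the ID4 libraries numbered 200 or over and 4 with limma on log2(TPM + 1). Macrophages are rich in lysosomes, and macrophage markers rose in the same libraries (784 to 936 TPM against 577 to 675 TPM); their part in these rises was not tested. In their RefSeq promoters 13 of 28 lysosomal genes held CACGTG, the E-box, against 11.2% of tested genes.

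Of 21 tested genes of MHC class I presentation (22 listed), 7 rose and 1 fell, against 2.64% and 1.61% of all genes tested. Their median was 0.34 and 20 were positive. The risers included H2-D1 (0.58), a classical class I molecule, H2-T22 and H2-T23 (0.58 and 0.62), non-classical ones, and Psmb8 (0.55), an immunoproteasome subunit chosen after its values were seen. H2-Q10, a secreted class I molecule made by the liver, fell from 1220, 1185, 985 and 1141 CPM to 726, 543, 717 and 766 CPM. Its log2 fold change was -0.72 (SE 0.12, edgeR adjusted p = 8.02e-04), with no overlap. Class I genes are near copies of each other, so their counts depend on how shared reads were divided. Without NUL_226, 4 genes of the list rose, and 3 did with the number range as a covariate or with only the ID4 libraries numbered 200 or over. Of 13 genes of MHC class II presentation none was called by edgeR, the median was -0.32 and 3 were positive; DESeq2 called 2 of them higher, and edgeR called 1 higher without NUL_220. Of 39 interferon-stimulated genes 38 were positive (median 0.47), but only Ifit3, Ifit3b and Parp14 were called. Leaving out NUL_220 gave 10 calls, leaving out ID4_13 or NUL_221 gave 1, and none was called with the title number range as a covariate.

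Among enzymes that act on drugs, steroids and retinoids, both rises and falls were called. Rdh16f2 (ENSMUSG00000074639, chromosome 10, 127866474 to 127877317), a dehydrogenase of the retinol and steroid family, had 38.1, 18.6, 21.9 and 29.8 CPM in NUL and 113, 113, 150.4 and 136 CPM in ID4. Its lowest ID4 value lay 2.96-fold above its highest NUL value. Rdh11, a retinal reductase, fell from 59.3 ± 10.9 to 25.2 ± 0.955 CPM (SD, n = 4 and 4; log2 fold change -1.23, SE 0.22, edgeR adjusted p = 0.00197). The list of P450 families 1 to 3 held 39 genes, counting Por, the P450 reductase. Of these 7 rose, against 2.64% of all genes tested, and 3 fell, against 1.61%, with a median of 0.29. Of the 39, 27 were positive and 12 were higher without overlap, against 6.17% of all genes tested. The summed level was 17026 to 19088 TPM in ID4 and 12117 to 16112 TPM in NUL. Of the risers, 4 were Cyp3a genes, which are more abundant in female mice. The counts of Cyp3a41a and Cyp3a41b, near-identical copies, were not whole in any library; both rose, with Cyp3a41a at 430.5, 486, 239.3 and 337 CPM in NUL and 1112, 1199, 1296 and 1287 CPM in ID4 and Cyp3a41b 2.90-fold higher. Cyp3a16, with whole counts in all 8 libraries, had 281, 200.8, 187 and 229 CPM in NUL and 453, 473, 538 and 506 CPM in ID4 (log2 fold change 1.13, SE 0.18, edgeR adjusted p = 5.55e-04). Cyp3a44, chosen after its values were seen, rose by 0.60. Cyp2a4, which hydroxylates steroids, rose (edgeR adjusted p = 5.69e-04) from 587 ± 138 to 1173 ± 226.2 CPM (SD, n = 4 and 4), with counts shared with its near copies. Cyp2r1, a vitamin D hydroxylase, fell by 0.70, Cyp2u1 by 0.72 and Cyp2d9 by 0.62, and the list had 1 fall, not 3, in each of the fits without ID4_13, ID4_15, ID4_211, ID4_215, NUL_221, NUL_226 or NUL_227.

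Of 43 conjugating enzymes 5 fell, against 1.61% of all genes tested, and 3 rose, against 2.64%, with a median of 0.04. Ugt1a5 (ENSMUSG00000089943, chromosome 1, 88166012 to 88218997), a glucuronosyltransferase, had 124, 95.6, 103 and 132 CPM in NUL and 33.1, 25.1, 25.4 and 31.2 CPM in ID4, 3.96-fold lower (log2 fold change -1.99, SE 0.22, edgeR adjusted p = 1.00e-05). Ugt1a9, which shares its last exons with Ugt1a5, had the opposite change, with 19.6, 19.3, 29.2 and 29.2 CPM in NUL and 42.4, 59.6, 48.1 and 44.6 CPM in ID4 (24.3 and 48.7 on average, edgeR adjusted p = 5.96e-04). Counts of both were not whole in any library. Among glutathione transferases 4 genes of 1 cluster fell, Gstm1 (-0.72), Gstm2 (-0.84), Gstm3 (-1.14) and Gstm6 (-0.55); Gstm1 had 986, 628, 812 and 794 CPM in NUL and 448, 542, 452 and 518 CPM in ID4. The list had 3 falls without ID4_13, 3 falls and 4 rises without NUL_220, and 3 falls and 3 rises both with the number range as a covariate and with only the ID4 libraries numbered 200 or over.

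Amino acid breakdown and the urea cycle had 6 rises and no falls among 36 genes (median 0.21), where 2.64% of all genes tested rose. The 6 included Mat1a (0.51), which makes S-adenosylmethionine, and Gldc (0.37), of glycine cleavage. The list had 0 rises without NUL_226, 1 without ID4_211, 2 without NUL_221 and 3 without ID4_13 or ID4_215. It had 9 without NUL_220, 10 with DESeq2 and 2 with only the ID4 libraries numbered 200 or over. Of 38 cell cycle genes, 1 rose, 2 fell and 35 were not called, where 2.64% of all genes tested rose and 1.61% fell. Ccnd1 (ENSMUSG00000070348, chromosome 7, 144929931 to 144939925), cyclin D1, had 66.6, 26.8, 59.7 and 83.7 CPM in NUL and 13.3, 19.3, 15.3 and 14.4 CPM in ID4. It fell by 1.93 on the log2 scale (SE 0.34, edgeR adjusted p = 0.00181), with NUL_221 nearest to the ID4 values and counts that were not whole in any library. Cdc20, which activates the anaphase-promoting complex, fell by 1.98 at levels of 2.20 TPM in NUL and 0.53 TPM in ID4, and Tk1, thymidine kinase, rose by 0.59. Ppard, a nuclear receptor for fatty acids, fell by 1.13 with overlap: NUL_226 had 14.7 CPM against 28.9 to 41.8 in the other NUL libraries. Its call was lost with only the ID4 and NUL libraries in the fit and with the number range as a covariate (adjusted p 0.0841). The call was also lost with only the ID4 libraries numbered 200 or over (adjusted p 0.19). Slc39a5, a zinc importer, had 9.34, 9.19, 9.16 and 8.03 CPM in NUL and 3.89, 2.69, 3.51 and 3.24 CPM in ID4, without overlap. Prlr, the prolactin receptor, Stat5b, which carries its signal, and Igfals, the carrier subunit of IGF1, rose by 0.37, 0.36 and 0.51, and none of these 3 was called without ID4_13, without NUL_221 or without NUL_227, while 1 was called without ID4_15, ID4_211 or NUL_220. Of 34 ribosome biogenesis factors 31 had a negative log2 fold change (median -0.28), and with edgeR Nhp2 (-0.39) alone fell and Npm1 (0.39) alone rose. DESeq2 called 6 lower and 1 higher, and no fall was called with only the ID4 libraries numbered 200 or over. Of the 34, 14 had an unadjusted p under 0.05 with edgeR, and 8 were lower without overlap, against 5.44% of all genes tested. Bile acid synthesis and transport had 1 rise (Akr1d1, 0.45) and 1 fall (Cyp27a1, -0.44) among 23 genes, against 2.64% and 1.61% of all genes tested. Either call was lost in 4 or more fits without 1 library (adjusted p 0.148 for Akr1d1 without ID4_211, 0.125 for Cyp27a1 without ID4_13). Folding and stress genes of the endoplasmic reticulum had 2 rises and 1 fall among 35, against 2.64% and 1.61% of all genes tested. No rise was called without ID4_15, NUL_220 or NUL_221 or with only the ID4 libraries numbered 200 or over, and 1 was called without ID4_211, ID4_215, NUL_226 or NUL_227. Cell death genes had 2 rises and 1 fall among 31, where 2.64% of all genes tested rose and 1.61% fell. They had 1 rise and no fall in the same setting of libraries numbered 200 or over and without any one of ID4_13, ID4_15, ID4_211, NUL_221, NUL_226 and NUL_227, and 1 rise and 1 fall without NUL_220.

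Several lists had no call with edgeR. These were proteasome subunits (35 tested, 0 with an unadjusted p under 0.05), nuclear-encoded respiratory chain (40, 6), collagen and matrix proteins (32, 6), cytosolic heat shock proteins (22, 4), lipid droplet proteins and lipases (16, 4) and MHC class II (13, 4). DESeq2 called 2 lipid droplet genes, 2 MHC class II genes (both higher) and 1 heat shock gene among them, and limma on log2(TPM + 1) called 1 collagen gene. The median log2 fold changes were 0.03 for proteasome subunits, 0.01 for the nuclear-encoded respiratory chain and -0.13 for collagen.

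The remaining genes of largest change belong to none of the groups above. Ntrk2 (ENSMUSG00000055254, chromosome 13, 58806569 to 59133970), the receptor of brain-derived neurotrophic factor, had 24.4, 18.4, 14.6 and 19.9 CPM in NUL and 1.96, 1.52, 2.4 and 1.52 CPM in ID4, 10.4-fold lower (log2 fold change -3.38, SE 0.72, edgeR adjusted p = 0.00858). With only the ID4 libraries numbered 200 or over, the calls of Ntrk2 (adjusted p 0.123), Aacs (0.14), Neb (0.0528) and Cd83 (0.0527) were lost. Also lost in that setting were those of Serpina4-ps1 (adjusted p 0.156), Slc37a1 (0.228) and Hist1h4h (0.103). The pseudogene Serpina4-ps1 varied 39.3-fold among NUL libraries, from 1.31 to 51.6 CPM, and was at 0.661 to 1.27 CPM in ID4; its call was lost without NUL_226 (adjusted p 0.0568). Aacs, acetoacetyl-CoA synthetase, which feeds ketone bodies into lipid synthesis, had 73.8, 57, 45.9 and 86.6 CPM in NUL and 11.7, 10.4, 13.6 and 15.6 CPM in ID4, a fall by 2.36. On the rising side, Eci3, an enoyl-CoA isomerase of peroxisomes, had 1.42, 1.28, 0.827 and 1.03 CPM in NUL and 5.02, 3.01, 5.4 and 5.56 CPM in ID4 (log2 fold change 2.05, SE 0.34, edgeR adjusted p = 8.92e-04). Dct, a melanin pathway enzyme, rose by 1.94, Neb, the muscle protein nebulin, by 1.37, and Cd83, an immune cell surface protein, by 1.33, each from at most 4.66 CPM in the NUL libraries. Slc37a1, a glucose-6-phosphate antiporter, rose by 1.23 and the histone gene Hist1h4h by 1.21; they were not called in 3 and 4 of the fits that left out 1 library (adjusted p 0.0756 without ID4_13 and 0.0768 without NUL_226). Of the 30 genes of largest change that the naming rule gave, 25 kept their call without each library in turn and 18 in every alternative.

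Day 4 was also compared with the sampled days before and after it, with the same 4 ID4 libraries in every comparison, so a chance deviation in these enters all of them. Against day 2 (3 libraries), 1.49% of genes were called, 0.645% higher and 0.84% lower at day 4. Against day 6 (6 libraries), 8.53% were called, 4.64% higher and 3.89% lower at day 4. The 244 calls against day 2 became 155 without ID4_215, and the 1401 against day 6 became 669 with the number range as a covariate, 738 without ID4_13 and 870 without ID4_215. The clock score was -1.52 to 0.47 at day 2, meeting the day 4 range at its upper end, and -3.50 to -2.85 at day 6, below every day 4 library. A total of 5 of 7 red cell markers were higher at day 4 than at day 6 (median 2.68); the part of the score and of these markers in the results was not tested. All 20 cholesterol enzymes were lower at day 4 than at day 2, and 6 were lower than at day 6; none was higher in either comparison. The summed level of these enzymes was 1712 ± 260.0 TPM at day 2 (SD, n = 3), 746 ± 44.6 at day 4 (n = 4), 1066 ± 139.9 at day 6 (n = 6), 1441 ± 310.0 at day 8 (n = 3), 1806 ± 231 at 4 weeks (n = 4) and 1766 ± 282 in NUL (n = 4). The 4 ID4 livers, 706 to 802 TPM, were below every library of every other stage, the nearest being 903 TPM at day 6. Fdps was lower than at day 2 and day 6 (log2 fold changes -2.63 and -2.01, edgeR adjusted p 2.34e-05 and 1.73e-04), while Hmgcs1 differed from day 2 (-1.50) and not by the test from day 6 (-0.09, edgeR adjusted p = 0.839).

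Scd1 averaged 2944 CPM at day 2, 212 at day 4 and 5914 at day 6, and was lower at day 4 in both comparisons (log2 fold changes -3.80 and -4.80, edgeR adjusted p 2.34e-05 and 4.44e-06). Among acute phase genes, 3 were higher at day 4 than at day 2 and 20 higher than at day 6, the latter 8 with the number range as a covariate and 11 without ID4_13. Hpx was higher than at day 2 by 1.06 and than at day 6 by 0.66 (edgeR adjusted p 0.0223 and 0.0361). Both calls were lost without ID4_13 and without ID4_211 (largest adjusted p 0.0685 against day 2 and 0.149 against day 6), and the second also with the number range as a covariate (adjusted p 0.172). Of complement and coagulation genes, 6 were higher than at day 2 and 18 higher than at day 6; against day 2 there were 2 without ID4_13, ID4_211 or ID4_215, and against day 6 there were 9 without ID4_13 or ID4_211. Hexa was also higher at day 4 than at both days, by 0.42 and 0.51 (edgeR adjusted p 0.00889 and 1.13e-04), and kept both calls without each ID4 library and with the number range as a covariate, as did Scd1 and Fdps. Macrophage markers differed in which day they were near: 9 of 15 were higher at day 4 than at day 2 and none differed by the test from day 6 (median log2 fold change 0.09). Their summed level was 553 ± 29.9 TPM at day 2, 855 ± 64.5 at day 4, 885 ± 88.7 at day 6 and 656 ± 91.5 at day 8. Rdh16f2 and Cyp2a4 were not called against day 2 or day 6, with log2 fold changes of 0.21 and 0.41 for Rdh16f2 and of -0.08 and 0.00 for Cyp2a4.

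**Figure D5:**
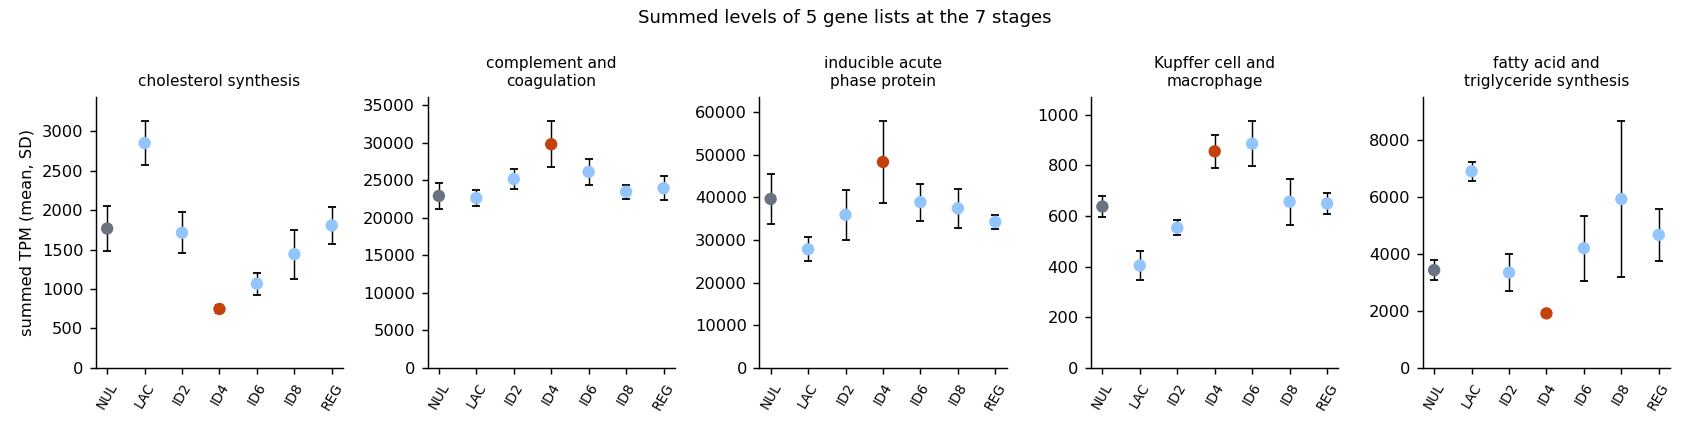
Summed TPM of 5 gene lists (mean, with bars for SD) at the 7 stages: nulliparous (NUL, n = 4), lactation day 10 (LAC, n = 3), days 2, 4, 6 and 8 after weaning (ID2, n = 3; ID4, n = 4; ID6, n = 6; ID8, n = 3) and 4 weeks after weaning (REG, n = 4). Cholesterol synthesis is at 746 TPM at ID4 against 1712 at ID2 and 1066 at ID6, and the macrophage markers are at 855 and 885 TPM at ID4 and ID6.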

How the data were processed

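RNA sequencing of mouse liver gave 27 libraries at 7 stages, and 4 ID4 and 4 NUL libraries were compared. Per the submitters' processing notes the tools were STAR 2.6.1a and RSEM 1.3.1 and the builds mm10 and GRCm38; trimming and the use of strand are not given in the sources used here, so antisense and overlapping genes are uncertain. The expected count column holds, per the file headers, the authors' RSEM estimate of reads per gene, without normalisation. The deposited tables also give TPM, scaled by the authors for length and depth. Of detected genes, 17.5% to 18.8% per library had fractional counts, as for reads that several genes share.

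Symbols and positions came from the GENCODE mouse annotation of GRCm38, by identifier: 51633 of 51826 identifiers were found, and the other 193 held 0.0147% of counts. Groups came from the sample titles. No 2 libraries of a group were near sampling noise (smallest chi-square per gene 58.3).

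Expected counts were rounded, then fitted with edgeR 4.0.16 in R 4.3.3 (filterByExpr by stage, TMM, 7 groups, glmQLFit robust, glmQLFTest, Benjamini-Hochberg). The 16428 genes tested held at least 99.978% of each library's counts. The biological coefficient of variation was 0.19. The script was tested on simulated data. SE was taken from the fold change and its F statistic. Alternatives used DESeq2 1.42.0, limma 3.58.1 on TPM, other scalings, filters and covariates, and fits without 1 library.

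The comparison, the lists and the naming rule were chosen with earlier results of these data known. The rule names the 15 largest rises and 15 largest falls among called genes without overlap, with mean log2 CPM of 1 or more and a symbol that is no placeholder; for each list up to 4 called members of smallest p and the member with the highest TPM in NUL; and all called cell markers. Genes outside the rule, whether or not marked in the text, were picked with their values known. Promoter sequences are RefSeq's, for GRCm38.p6. Several named genes are not reported here.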

Additional observations from a re-analysis of the deposited data

Results flagged for a closer look

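Among the named genes and those chosen after their values were seen, 18 of 346 combinations of gene and group (5.2%) held 1 library whose gap to the nearest of the other 3 took up more of the range of its group than Dixon's 95% critical value; chance gives about 1 in 20, or 17.3. No cause of any of these was tested.

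Library NUL_221 stood above the other NUL libraries in 4 acute phase genes. Saa1 had 88.5 CPM there and 9.08 to 15.6 in the others, Saa2 57.7 CPM against 7.05 to 9.32, Orm2 38.2 CPM against 16.8 to 18.2, and Lcn2 38.5 CPM against 4.96 to 8.24. NUL_226 stood apart in Ttr, the carrier of thyroid hormone (8526 CPM, others 5992 to 6340), Bid, a cell death mediator (4.1, others 5.08 to 5.26), Rarres2, which encodes chemerin (272, others 324 to 328), and Slc25a1, the mitochondrial citrate carrier (155, others 168 to 169). NUL_227 was high for Hspa5, a chaperone of the endoplasmic reticulum (1812 CPM, others 1035 to 1161), and low for the zinc transporter Slc39a5 (8.03, others 9.16 to 9.34).

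In ID4, library ID4_211 was high for Insig1, of sterol sensing (111 CPM, others 51.3 to 59.6), and low for Hadh (365, others 400.1 to 405). ID4_13 was high for Sqle (5.94 CPM, others 3.29 to 3.68). ID4_15, the library with pancreas RNA, was low for Fdps (21.6 CPM, others 24.1 to 24.5), Fetub (438, others 503 to 514) and Serpina4-ps1 (0.661, others 1.25 to 1.27), and high for Trib3, a stress-induced pseudokinase (8.69, others 5.96 to 6.07). ID4_215 was low for Tgm2, transglutaminase 2 (189 CPM, others 214.9 to 219.7).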

How the results depend on the processing

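The number of genes called, 698, was 359 with the title number range as a covariate, 229 with only the ID4 libraries numbered 200 or over, 1127 with DESeq2, 261 at an adjusted p under 0.01 and 417 to 611 when 1 library was left out. The higher genes, as a percent of 434, came to 55.1% and 51.8% with limma on log2(TPM + 1) and log2(TPM + 0.1), to 53.5%, 35.0%, 158% and 38.0% under the first 4 settings and to 57.8% to 89.2% without 1 library. The lower genes, as a percent of 264, came to 48.1%, 29.2%, 167% and 36.4% under those 4 and to 59.5% to 84.8% without 1 library. Numbers under 200 occur in ID4 and not in NUL; the cause of these changes was not tested. With log2(TPM + 0.1), 44.2% of calls were rises. Of 125 called named genes, 56 kept their call in every alternative in which they were tested, 44 lost it without at least 1 library, and none changed direction.

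Signs were followed through the alternatives for the named genes and some of those chosen after their values were seen, not for every list member. Among those whose values are printed or counted here, 10 genes, none of them called, changed sign, and the cause was not tested. With limma on log2(TPM + 1) and log2(TPM + 0.1), Psmb6 was at -0.07 and -0.07, Atp5b at -0.08 and -0.08, mt-Atp8 at -0.02 and -0.02, Bst2 at -0.00 and -0.00, Hnf4a at -0.03 and -0.03 and Fga at -0.04 and -0.04. Over the fits without 1 library, Psmb6 ran from -0.03 to 0.06, mt-Atp8 from -0.01 to 0.29, Cdkn1a from -0.24 to 0.03, Hnf4a from -0.05 to 0.15 and Fga from -0.07 to 0.10. With the clock covariate, Hsd3b7 was at 0.00, Tgm2 at -0.05 and Hnf4a at -0.04; with the number range as a covariate, Cdkn1a was at 0.06; with ID4 libraries numbered 200 or over, Mt1 was at -0.01.

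No paired analysis was possible because the ID4 and NUL titles share no number. Molecular identifiers are not mentioned in the sources used here. Genes such as Ly6c2, with under 1 CPM in most libraries, are limited by depth.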

Other observations

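The genes here were chosen after their values were seen, and belong to none of the lists above. Dbi, the acyl-CoA binding protein, had 588, 655, 503 and 514 CPM in NUL and 214.5, 170.2, 242 and 301 CPM in ID4, with no overlap (log2 fold change -1.28, SE 0.15, edgeR adjusted p = 2.86e-06), and kept its call in every alternative. Acsl3, which activates fatty acids, had 17.5, 20.9, 22 and 30.5 CPM in NUL and 5.5, 8.34, 8.73 and 7.02 CPM in ID4 (log2 fold change -1.62, edgeR adjusted p = 1.84e-04), and Acsl5, of the same family, fell by 0.77 (edgeR adjusted p = 0.0069), a call lost with only the ID4 libraries numbered 200 or over (adjusted p 0.122). Slc25a1, which exports citrate from mitochondria, fell by 0.49 (edgeR adjusted p = 0.00146), and Mmab, an enzyme of cobalamin use, by 0.99 (edgeR adjusted p = 2.34e-04).

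Genes of translation, sets chosen after their values were seen, are given as counts. Of 80 cytosolic ribosomal protein genes 1 rose (Rpl22, 0.32) and none fell with edgeR, where 2.64% of all genes tested rose, with a median log2 fold change of -0.03. Among 19 translation factors (elongation factors, subunits of initiation factor 3, Eif4b and Pabpc1), 4 rose (Eef2, Eif3e, Eif3h and Eif4b), and the median was 0.16. Eif4b, an initiation factor, had 251, 210.6, 241 and 235 CPM in NUL and 376, 372, 347 and 364 CPM in ID4 (log2 fold change 0.64, SE 0.09, edgeR adjusted p = 1.18e-04). It was also higher at day 4 than at day 2 and day 6, by 0.51 and 0.37 (edgeR adjusted p 0.00561 and 0.00623). Eef2, elongation factor 2, had 1597, 1422, 1560 and 1626 CPM in NUL and 2231, 2239, 2119 and 2268 CPM in ID4 (log2 fold change 0.51, edgeR adjusted p = 8.92e-04).

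Of genes outside the macrophage list, Cybb, the catalytic subunit of the phagocyte oxidase, had 13.8, 11.1, 15.2 and 12.3 CPM in NUL and 24.6, 26.5, 19.2 and 17.6 CPM in ID4, without overlap (log2 fold change 0.74, edgeR adjusted p = 0.00222). Vcam1, an adhesion molecule, rose by 0.65 (edgeR adjusted p = 0.00299). With only the ID4 libraries numbered 200 or over neither was called (adjusted p 0.138 for Cybb and 0.0786 for Vcam1), and Cybb was not called by limma on log2(TPM + 1) or log2(TPM + 0.1).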
